A study of Mus musculus with 7 samples.

Results

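The genes of the T-cell receptor complex and its coreceptors were followed in T-cells of ORP4L KI mice and WT littermates. The set holds 10 genes, Cd3e, Cd3d, Cd3g, Cd247, Cd4, Cd8a, Cd8b1, Lck, Zap70 and Lat, chosen by name from the 25033 genes listed, and all 10 passed the filter on low counts. The transcriptomes of 4 ORP4L KI and 3 WT mice were sequenced, with 1 library of T-cells per mouse. All mice were C57BL/6J and 15 months old by their labels, and the KI mice were at moribund state. The KI mice carried a human ORP4L coding sequence in the Rosa26 locus behind a CAG promoter and a floxed stop, joined to a 3xFlag tag and IRES-EGFP, and were crossed with Lck-Cre mice, in which the promoter of Lck, one of the 10 genes, drives Cre in the T-lineage. Whether the WT littermates carried Lck-Cre is not stated. The T-cells came from blood mononuclear cells or splenocytes, and the source of each library is not stated. The methods also describe a further selection of CD4+ cells with a naive CD4+ T-cell kit, followed by culture, and do not say whether it was used for these libraries. Such a selection is meant to remove CD8 T-cells, NK cells, dendritic cells and granulocytes. Transcripts of all of these were read in every library, and whether the selection was used was not tested.

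The T-cell receptor recognises peptide bound to MHC through its variable chains, which have almost no cytoplasmic tail. The signal is passed on by the CD3 epsilon, delta and gamma chains and the zeta chain (Cd247), whose tails carry tyrosine motifs. The kinase Lck, held on the tails of the coreceptors CD4 and CD8, phosphorylates these motifs, ZAP-70 docks on them, and ZAP-70 then phosphorylates the adaptor LAT, on which the downstream signalling complex assembles. CD4 binds MHC class II and marks helper and regulatory T-cells, whereas CD8, a dimer of alpha and beta chains in conventional T-cells, binds MHC class I and marks cytotoxic T-cells.

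None of the 10 genes differed between ORP4L KI and WT T-cells beyond the spread between mice. All 10 were read in every library, at 842 to 10384 counts, so counting error was at most 3.45% of a value and the spread between mice set the precision. Within the set, the balance of the coreceptors stood apart by group: the Cd4 to Cd8a count ratio was lower in each of the 4 ORP4L KI libraries than in any WT library, although the exact permutation test did not pass 0.05. ORP4L KI replicate 1 held the lowest level of 8 of the 10 genes and had a large share of granulocyte transcripts, so results are given with and without it.

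The total count was 12918187 to 15912921 in WT and 16757959 to 19665679 in ORP4L KI. Osbp2, the mouse gene of ORP4L, on which reads of the human sequence can land, had 0, 0 and 1 counts in the WT libraries and 188, 742, 155 and 443 in the ORP4L KI libraries, in the order of their replicate numbers, which follows the labels. Reads of the Y-linked gene Ddx3y were abundant in WT replicates 2 and 3 and ORP4L KI replicates 3 and 4 (121 to 208 CPM, counts scaled to library size by TMM) and near absent in the other 3 libraries (at most 3.35 CPM), so both kinds of library occurred in both groups. The labels give no sex. Summed over 14 granulocyte genes such as Mpo, Ltf and Ly6g, the share of all counts was 0.186% to 0.530% in WT and 12.2%, 1.12%, 3.06% and 4.91% in ORP4L KI replicates 1 to 4. In bulk RNA, fewer cells of a type and less RNA per cell cannot be told apart. Cd3e, with at least 1826 counts, and the other genes of the set were read in every library. Their presence does not give the share of T-cells in a library. The B-cell gene Cd79a was at 40.7 to 153 CPM over the 7 libraries, beside 115 to 245 CPM for Cd3e.

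Cd3g, Cd3d and Cd3e lie together on chromosome 9 (GRCm38.p6). By the RefSeq gene spans, Cd3g (44969572 to 44980431) and Cd3d (44981769 to 44987052) are transcribed away from each other from starts 1338 bases apart, and Cd3e (44998735 to 45009663) follows with its end toward Cd3d. Cd8b1 and Cd8a are neighbours on chromosome 6, with 35935 bases between the end of Cd8b1 and the start of Cd8a, and Cd4 is elsewhere on that chromosome (124864693 to 124888247). Cd247 and Zap70 lie on chromosome 1, Lck on chromosome 4 and Lat on chromosome 7. The 250 bases before each listed start were read from the RefSeq promoter table of GRCm38.p6, which gave 11 windows for 8 of the 10 genes and none for Cd4 and Cd8b1. The starts of this table can lie inside the gene span, as for Cd3d, Cd3e and the downstream start of Lck, so that a window can overlap the span. The windows of the close neighbours Cd3g and Cd3d are shown because the levels of these genes moved unequally between libraries, and those of the starts of Lck, 15269 bases apart, because the Lck promoter drives Cre in the KI mice. Capitals mark the letters TGTGGT (recognised by RUNX factors), ACTTCC (by ETS factors), CAGNTG (the E-box) or AGATAA (by factors of the GATA family) on either strand, and no matches overlapped in the 4 windows.
Cd3g, chr9:44980432-44980681, minus strand: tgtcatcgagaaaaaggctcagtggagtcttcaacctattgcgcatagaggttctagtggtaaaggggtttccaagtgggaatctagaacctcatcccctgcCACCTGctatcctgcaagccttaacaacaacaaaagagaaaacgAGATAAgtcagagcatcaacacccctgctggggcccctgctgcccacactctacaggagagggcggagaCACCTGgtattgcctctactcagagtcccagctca
Cd3d, chr9:44981536-44981785, plus strand: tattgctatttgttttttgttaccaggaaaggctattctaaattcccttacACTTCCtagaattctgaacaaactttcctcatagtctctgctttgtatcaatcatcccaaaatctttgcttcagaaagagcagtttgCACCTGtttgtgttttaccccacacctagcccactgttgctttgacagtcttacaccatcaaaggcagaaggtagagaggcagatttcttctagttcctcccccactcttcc
Lck upstream start, chr4:129573642-129573891, minus strand: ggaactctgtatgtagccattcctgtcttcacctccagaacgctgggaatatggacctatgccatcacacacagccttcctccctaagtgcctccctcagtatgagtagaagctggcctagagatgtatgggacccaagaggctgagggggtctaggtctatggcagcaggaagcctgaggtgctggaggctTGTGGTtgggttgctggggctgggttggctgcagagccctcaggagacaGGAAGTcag
Lck downstream start, chr4:129558373-129558622, minus strand: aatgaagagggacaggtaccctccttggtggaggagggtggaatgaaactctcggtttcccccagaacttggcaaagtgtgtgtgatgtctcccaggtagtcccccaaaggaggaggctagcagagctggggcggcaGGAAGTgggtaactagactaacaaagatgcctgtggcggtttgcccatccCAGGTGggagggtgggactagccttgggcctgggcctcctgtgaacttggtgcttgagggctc

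The ETS letters were in 6 of the 11 windows, against 19.7% of all 32851 windows of this length, and the E-box letters in 7 of 11, against 44.8%. RUNX letters were in 2 of 11 against 14.0%, GATA letters in 1 of 11, that of Cd3g, against 9.99%, and TATAAA in 0 of 11 against 12.4%. The Cd3g window thus held E-box and GATA letters without the ETS letters found in the Cd3d window and in both Lck windows. A match of letters does not show that a factor binds there.

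Per transcript length, Cd3g was the highest of the 10 genes and Cd8a the lowest. By the mean RPKM of the 7 libraries (the deposited read density, scaled to the longest transcript and to library size), the order was Cd3g at 314, Lat at 224, Lck at 205, Cd247 at 148, Cd3e at 113, Cd3d at 110, Cd4 at 93.7, Cd8b1 at 91.0, Zap70 at 79.5 and Cd8a at 52.0. The step from Cd3g to Lat, from Lck to Cd247 and from Zap70 to Cd8a held in all 7 libraries. Lat was above Lck, and Cd247 above Cd3e, in 6 of 7. The remaining neighbours changed places between libraries. Cd3e was above Cd3d in 2 of 7 libraries, Cd3d above Cd4 in 5 and Cd8b1 above Zap70 in 4. Cd4 was above Cd8b1 in each of the 3 WT libraries and in 0 of the 4 ORP4L KI libraries. Cd4 RPKM was 83.0 to 128 in WT and 25.2 to 146 in ORP4L KI, and Cd8b1 RPKM was 54.0 to 100.5 in WT and 28.9 to 150 in ORP4L KI. The single gene ranges of the groups therefore overlapped. The order of this pair was seen from the ranking of levels. The pair is not among the 11 ratios compared below, and its order was not tested.

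**Figure D1:**
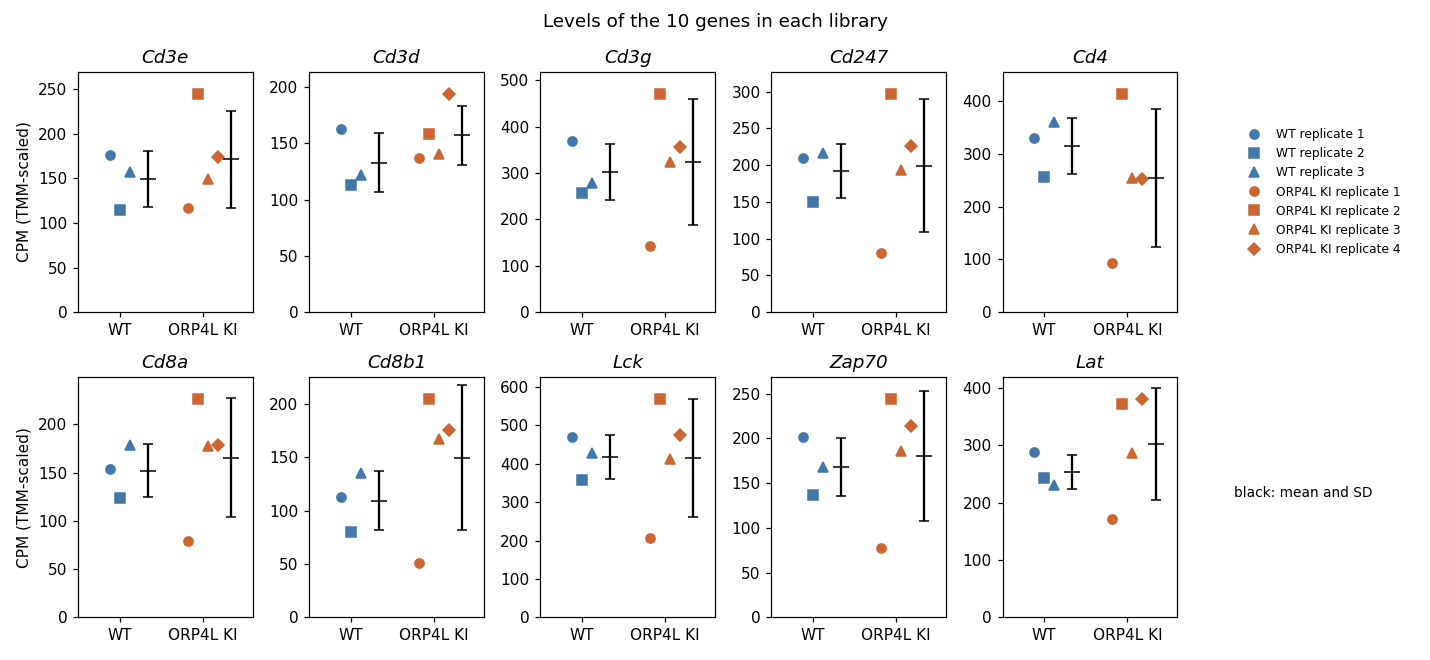
Level of each of the 10 genes in CPM (counts scaled to library size by TMM) in the 3 WT (blue) and 4 ORP4L KI (orange) libraries. Each marker is 1 mouse, and the black bar gives the mean and SD of the group. ORP4L KI replicate 1 (orange circle) is the lowest library for 8 of the 10 genes, and for no gene do the groups separate.

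The levels of the CD3 chains overlapped between the groups. Cd3e, the epsilon chain, which pairs with both delta and gamma, was at 176, 115 and 157 CPM in WT replicates 1 to 3 and at 117, 245, 149.5 and 174 CPM in ORP4L KI replicates 1 to 4. Cd3d, the delta chain, was at 163, 113 and 122 CPM in WT and at 137, 158, 140 and 194 CPM in ORP4L KI. Cd3g, the gamma chain, was at 370, 257 and 279 CPM in WT and at 143, 471, 324 and 356 CPM in ORP4L KI. ORP4L KI replicate 2 was the highest library for Cd3e and Cd3g and replicate 1 the lowest for Cd3g, whereas Cd3d had its highest level in ORP4L KI replicate 4 and its lowest in WT replicate 2. The means were 149 ± 31.2 (SD, n = 3) in WT and 171 ± 54.3 (n = 4) in ORP4L KI for Cd3e, a log2 fold change of 0.20 (SE 0.28, adjusted p = 0.836, edgeR quasi-likelihood test with Benjamini-Hochberg adjustment over 13462 genes). For Cd3d the log2 fold change was 0.25 (SE 0.21, adjusted p = 0.707), and for Cd3g it was 0.10 (SE 0.36, adjusted p = 0.946).

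The zeta chain gene Cd247 was at 210, 150 and 216 CPM in WT and at 80.4, 297, 193 and 227 CPM in ORP4L KI. Its lowest and highest libraries were both ORP4L KI, and the means of 192 ± 36.8 and 199 ± 90.4 CPM gave a log2 fold change of 0.05 (SE 0.38, adjusted p = 0.970). The zeta chain also pairs with activating receptors of NK cells. Summed over 9 NK cell genes, the share of counts was 0.0512% to 0.0656% in WT and 0.0115% to 0.0293% in ORP4L KI, and the part of these cells, which a naive CD4+ selection would remove, in the Cd247 level was not tested.

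Of the coreceptors, Cd4 had a lower and Cd8b1 a higher mean in ORP4L KI T-cells, neither beyond the spread between mice. Cd4 was at 331, 257 and 360 CPM in WT and at 93.4, 415, 254 and 254 CPM in ORP4L KI. Thus 3 of the 4 ORP4L KI libraries were below every WT library for Cd4, and replicate 2 was above every one. The means were 316 ± 53.2 and 254 ± 131 CPM, a log2 fold change of -0.31 (SE 0.41, 95% interval -1.23 to 0.60, adjusted p = 0.825). Cd8a, the alpha chain, was at 154, 124 and 179 CPM in WT and at 79.6, 226, 178 and 179 CPM in ORP4L KI, a log2 fold change of 0.12 (SE 0.32, adjusted p = 0.923). Cd8b1, the beta chain, was at 112, 80.2 and 135 CPM in WT and at 51.3, 204, 167 and 176 CPM in ORP4L KI. For Cd8b1, ORP4L KI replicates 2, 3 and 4 were above every WT library and replicate 1 below every one. Its means of 109 ± 27.6 and 150 ± 67.5 CPM gave the largest log2 fold change of the 10 genes, 0.45 (SE 0.41, 95% interval -0.48 to 1.39, adjusted p = 0.723).

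The levels of the signalling genes behind the receptor also overlapped between the groups. Lck was the gene with the most counts of the set, at 471, 357 and 428 CPM in WT and 207, 569, 413 and 474 CPM in ORP4L KI. Its means of 418 ± 57.3 and 416 ± 153 CPM were the closest of the 10 genes, with a log2 fold change of -0.01 (SE 0.32, 95% interval -0.73 to 0.71, adjusted p = 0.995). Zap70 was at 201, 136 and 168 CPM in WT and at 77.9, 244, 185 and 214 CPM in ORP4L KI, a log2 fold change of 0.10 (SE 0.35, adjusted p = 0.946). Lat, the adaptor, was at 288, 242 and 230 CPM in WT and at 171, 372, 287 and 381 CPM in ORP4L KI, a log2 fold change of 0.26 (SE 0.29, adjusted p = 0.791). For Lat, 2 ORP4L KI libraries were above every WT library and 1 was below every one.

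Across the set, 0 of 10 genes passed an adjusted p of 0.05, where 0.0223% of the 13462 genes tested did (3 genes). By the second rule, an unadjusted p under 0.01 with a log2 fold change above 1 in size, 0 of 10 were called, where 4.68% of all genes were (630, of which 50.8% were higher in ORP4L KI, or 40.3% of calls with scaling by total counts alone). The unadjusted p was under 0.05 for 0 of the 10 in the quasi-likelihood test. In 0 of 10 genes did the groups not overlap, where 13.8% of all genes did not. With TMM scaling 8 of the 10 log2 fold changes were above 0, against 9 when scaled by DESeq2's size factors, 7 by the upper quartile and 5 by total counts, the last of which shifted the median of all genes by -0.14. The median of the 10 was 0.11, beside 0.01 over all genes tested. The 95% intervals reached from -1.23 for Cd4 to 1.39 for Cd8b1.

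**Figure D2:**
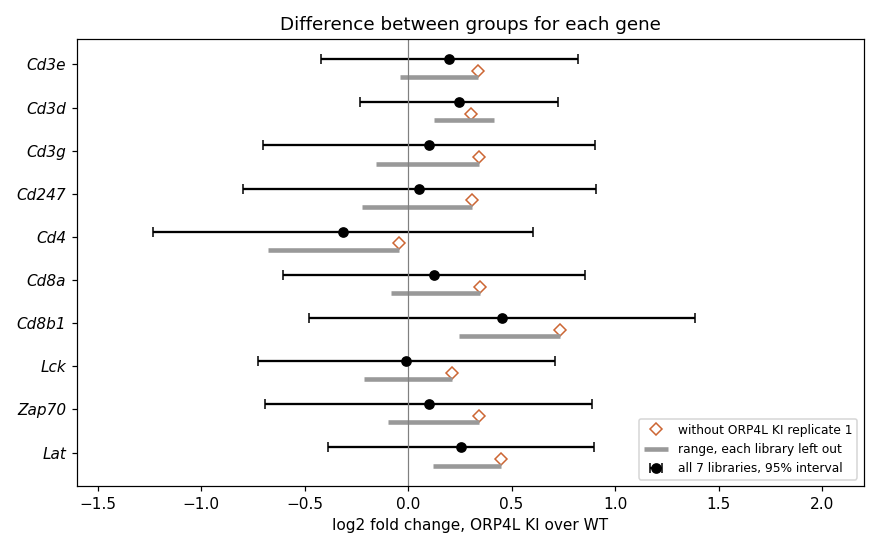
Log2 fold change of each gene, ORP4L KI over WT. Black points and bars give the estimate and 95% interval from all 7 libraries, grey bars the range when each library was left out in turn, and open diamonds the value without ORP4L KI replicate 1. Every interval spans 0, and without replicate 1 all estimates except that of Cd4 are above 0.

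The 10 genes varied more between ORP4L KI mice than between WT mice. The coefficient of variation was larger in ORP4L KI for 9 of the 10 genes, at 16.7% to 51.7% against 11.97% to 25.3% in WT, and Cd3d was the exception. Without ORP4L KI replicate 1 it was 10.7% to 30.2% and larger than in WT for 6 genes. The difference in spread was not tested. Together, the 10 genes took 0.268%, 0.183% and 0.251% of all counts in WT replicates 1 to 3 and 0.0967%, 0.349%, 0.228% and 0.242% in ORP4L KI replicates 1 to 4. The extremes of this share were therefore both ORP4L KI libraries, with the 3 WT libraries between them.

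The genes of the set were not equally low in ORP4L KI replicate 1. Set against the median of the other 6 libraries, its level was 0.318 times for Cd4, 0.339 for Cd8b1, 0.377 for Cd247, 0.403 for Zap70, 0.421 for Cd3g, 0.447 for Cd8a and 0.461 for Lck. It was 0.596 times for Lat, 0.704 for Cd3e and 0.916 for Cd3d. The 3 CD3 chain genes, neighbours on chromosome 9, thus ranged from 0.421 to 0.916 times in the same library. This library also had the largest share of granulocyte transcripts, 12.2%, and its most abundant gene was S100a9, a granulocyte alarmin. The part of granulocyte RNA in these levels was not tested.

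Without ORP4L KI replicate 1, the log2 fold changes ran from -0.04 for Cd4 to 0.73 for Cd8b1, with a median of 0.34, and 9 of 10 were above 0. Cd8b1 then had an unadjusted p of 0.0113 (adjusted p = 0.186, edgeR quasi-likelihood test) and Lat, at a log2 fold change of 0.45, one of 0.0468 (adjusted p = 0.355). No gene of the set passed the adjusted threshold. The median was also higher without WT replicate 1 (0.26, 9 of 10 above 0) and without WT replicate 3 (0.17, 9 of 10). It was lower without ORP4L KI replicates 3 (0.09, 8 of 10) and 4 (0.06, 7 of 10), and below 0 without WT replicate 2 (-0.01, 4 of 10) and without ORP4L KI replicate 2 (-0.09, 3 of 10). The direction of the set as a whole thus depended on single mice.

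**Figure D3:**
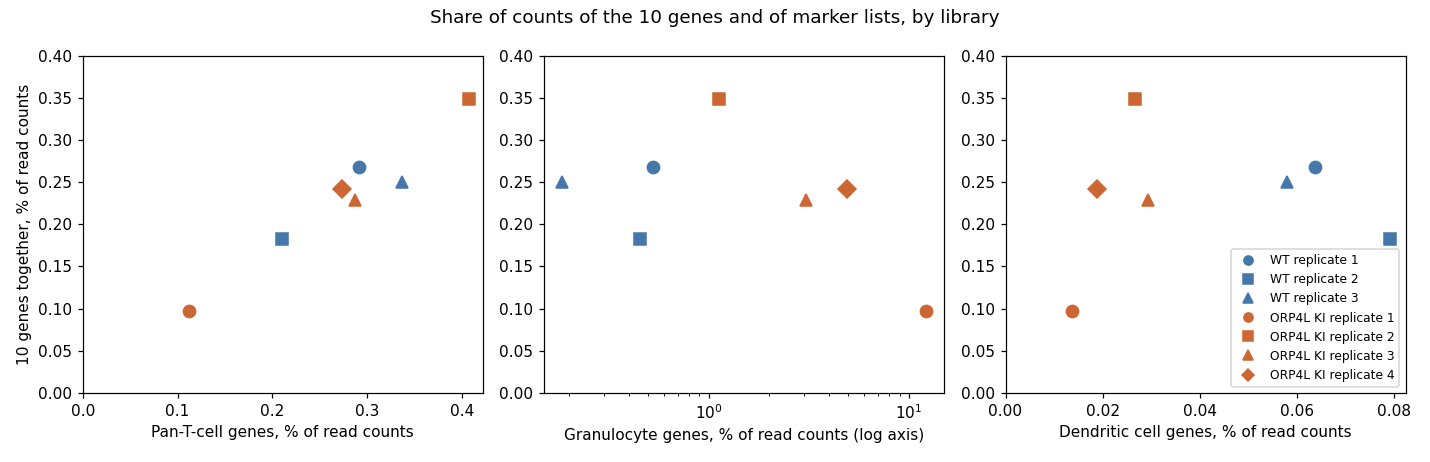
Share of all counts taken by the 10 genes together (vertical axis, %) against that of the pan-T-cell genes (left), granulocyte genes (middle, log axis) and dendritic cell genes (right), with 1 marker per library. The share of the 10 genes runs with that of the pan-T-cell genes, both lowest in ORP4L KI replicate 1 and highest in replicate 2, and the dendritic cell share is below 0.03% in all 4 ORP4L KI libraries and above 0.05% in the 3 WT libraries.

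Ratios between genes of the same library do not depend on the scaling between libraries, and 11 were compared. The Cd4 to Cd8a count ratio was 2.15, 2.07 and 2.02 in WT replicates 1 to 3 and 1.17, 1.83, 1.43 and 1.42 in ORP4L KI replicates 1 to 4. Every ORP4L KI library was thus below every WT library, and the WT values lay within a narrow range. The mean ratio was 2.08 ± 0.0675 (SD, n = 3) in WT and 1.46 ± 0.273 (n = 4) in ORP4L KI, and the difference of the mean log2 ratios was -0.52, or 0.695 times. With 35 ways to divide the libraries 4 to 3, the two-sided exact permutation test gave p = 0.0571 (0.471 after Benjamini-Hochberg adjustment over the 11 ratios), where the smallest p this design allows is 0.0286. Among all other genes tested, 4.7% had a ratio to Cd8a that was lower in every ORP4L KI library than in every WT library. Without ORP4L KI replicate 1 the difference was -0.43. As no values of the groups overlapped, leaving out or splitting libraries could change the size of the difference but not its sign. Among the libraries with Y-linked reads (WT replicates 2 and 3, ORP4L KI replicates 3 and 4) the difference was -0.52. Among those without, where WT replicate 1 was the only WT library, the difference was -0.55. The split by Y-linked reads was chosen only on seeing the data.

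Taken against Cd3e, the lower coreceptor ratio was that of Cd4. The Cd4 to Cd3e ratio was 1.88, 2.23 and 2.29 in WT and 0.800, 1.69, 1.70 and 1.45 in ORP4L KI, again with no overlap. Its log2 difference was -0.65 (exact permutation p = 0.0857, 0.471 after adjustment) and -0.40 without ORP4L KI replicate 1. Ratios of other genes to Cd3e were lower in every ORP4L KI library for 6.99% of genes and apart in either direction for 8.47%. The Cd8a to Cd3e ratio overlapped, with a log2 difference of -0.13 (exact permutation p = 0.629, 0.873 after adjustment). Some dendritic cells of the mouse also carry Cd4 and others Cd8a. Summed over 9 dendritic cell genes, the share of counts was 0.0580% to 0.0790% in WT and 0.0136% to 0.0293% in ORP4L KI, and the part of these cells in the ratios was not tested. A naive CD4+ selection is meant to remove them and the CD8 T-cells. Cd8a had at least 1307 and Cd8b1 at least 842 counts in every library, and whether the selection was used was not tested.

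The ratio of the CD8 chains was another in which 3 of the 4 ORP4L KI libraries stood below WT. Cd8a to Cd8b1 was 1.37, 1.54 and 1.32 in WT and 1.55, 1.11, 1.06 and 1.02 in ORP4L KI, so that replicate 1 was the highest of all 7 and the other ORP4L KI libraries were below every WT library. The log2 difference was -0.27 with all libraries (exact permutation p = 0.171, 0.629 after adjustment) and -0.41 without ORP4L KI replicate 1. CD8 alpha can also form a dimer with itself, without the beta chain, on some T-cells and dendritic cells.

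The ratios of Cd247 and Zap70 to Cd3e set ORP4L KI replicate 1 apart from the other libraries. Cd247 to Cd3e was 1.19, 1.30 and 1.38 in WT and 0.689, 1.22, 1.29 and 1.30 in ORP4L KI. Zap70 to Cd3e was 1.15, 1.19 and 1.07 in WT and 0.668, 0.998, 1.24 and 1.23 in ORP4L KI. In both ratios replicate 1 was the lowest library by a wide gap, while the other 3 ORP4L KI libraries were near or within the WT range. Cd3d to Cd3e went the other way in replicate 1, at 1.17, the highest of the 7 libraries, whose other values were 0.647 to 1.11. The log2 differences between the groups were 0.08 for Cd3d, -0.17 for Cd3g, -0.24 for Cd247, 0.14 for Cd8b1, -0.26 for Lck, -0.17 for Zap70 and 0.03 for Lat, each over Cd3e. None of these 7 passed the exact permutation test, with p from 0.257 for Lck to 0.886 for Lat.

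**Figure D4:**
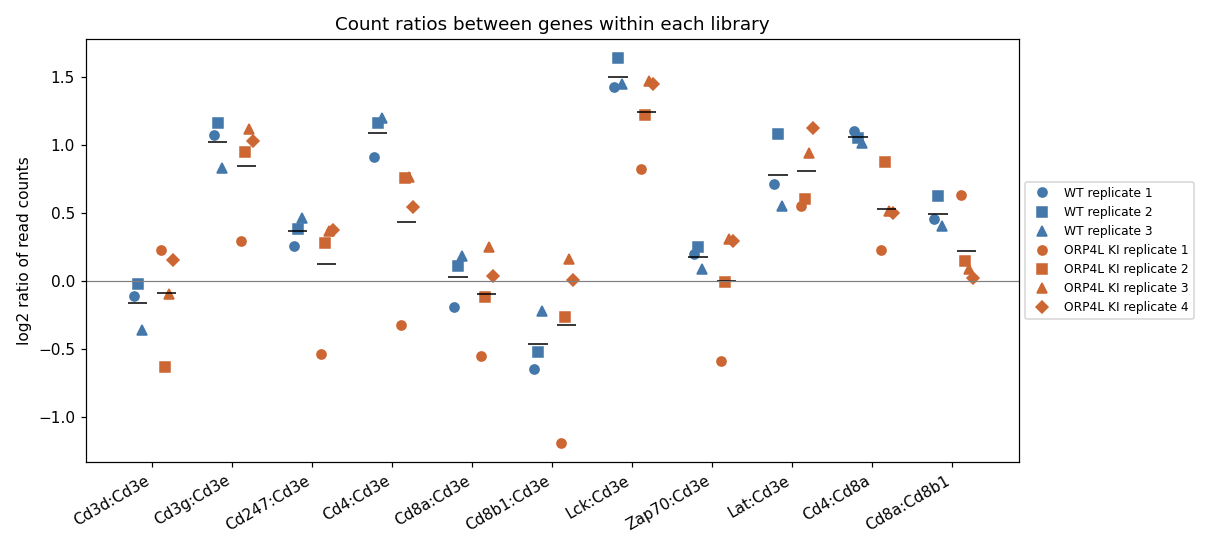
Log2 ratio of read counts between genes of the same library for the 11 ratios compared, in WT (blue) and ORP4L KI (orange) libraries. Black bars give group means. The groups do not overlap for Cd4:Cd3e and Cd4:Cd8a, and ORP4L KI replicate 1 (orange circle) lies far from the other libraries in several ratios to Cd3e.

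The levels of the 10 genes moved together across libraries, with Cd3d as the exception. Over the 45 pairs, Pearson's r of log2 CPM across the 7 libraries had a median of 0.89 and was above 0.9 for 19 pairs. The lowest value was that of Cd3d with Cd4, 0.13, and the 8 lowest were all pairs of Cd3d, whose r with its divergent neighbour Cd3g was 0.50. The highest was that of Cd247 with Lck, 0.99. These values describe 7 libraries that share the low levels of ORP4L KI replicate 1. The 10 genes were compared with 7623 other genes with a mean log2 CPM of at least 4, some of them below the set in level. Those most like Cd3e were Slc37a1 (r = 0.97), Tbc1d22b, Lax1, Sp100 and Gata3. For Cd4 they were Rasal3 (r = 0.996), Sufu, Rbms2, Cd96 and Ints1, and for Cd8a they were Tob2 (r = 0.99), Gimap6, Il2rb, Axin1 and Gimap9. An r of at least 0.9 was shared by 37 genes with Cd3e, 3 with Cd3d, 386 with Cd4 and 285 with Cd8a.

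Of the other genes of T-cells and of receptor signalling, 0 passed the adjusted threshold, where 0.0223% of all genes tested did. By the unadjusted rule 1, Rasa2, was called, where 4.68% of all genes were. Of 11 pan-T-cell genes, 0 were called in either direction, with a median log2 fold change of 0.03 (0.26 without ORP4L KI replicate 1). The largest in size were Cd28, the costimulatory receptor, at 0.73, and Lef1, a transcription factor of naive T-cells, at -0.73. Of 19 proximal signalling genes, 0 were called, with a median of -0.09. Trat1, an adaptor bound to the receptor complex, was at 32.4, 20.1 and 38.9 CPM in WT and at 13.9, 26.8, 18.1 and 12.8 CPM in ORP4L KI, a log2 fold change of -0.77 (unadjusted p = 0.0372, adjusted p = 0.319 in the edgeR test). Vav1, an exchange factor activated behind the receptor, was at 169, 177 and 177 CPM in WT and at 233, 180, 189 and 187 CPM in ORP4L KI. Its groups did not overlap, which was so for 13.8% of all genes tested. The log2 fold change of Vav1 was 0.17 (SE 0.18, adjusted p = 0.766 in the edgeR test), and 0.08 without ORP4L KI replicate 1. Plcg1, the phospholipase recruited to LAT, was at -0.31.

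Among 15 genes that restrain receptor signalling, 1 was called by the unadjusted rule, with a median of -0.04. Rasa2, which switches off Ras, was at 30.7, 30.9 and 52.5 CPM in WT and at 148, 65.5, 73.7 and 111 CPM in ORP4L KI. For Rasa2 the groups did not overlap, the KI libraries being the higher ones, where 13.8% of all genes tested did not overlap in either direction. The log2 fold change was 1.39 (SE 0.34, adjusted p = 0.103 in the edgeR test), and 1.13 without ORP4L KI replicate 1. Within ORP4L KI, Rasa2 ran in the order of the granulocyte share of counts, highest in replicate 1 and lowest in replicate 2. The part of other cells in the Rasa2 level was not tested. Of 8 factors of the CD4 and CD8 lineages, 0 were called, with a median of -0.10, including Zbtb7b, needed for the CD4 lineage, at -0.14 and Runx3, needed for the CD8 lineage, at -0.18. Tox and Satb1 were the largest in size, at 0.60 and -0.35. Of the gamma-delta T-cell genes 3 were examined and 0 called, with Sox13 at 0.80 and Blk at -0.42.

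Several markers of other cells moved further than any gene of the receptor complex. All 14 granulocyte genes were called higher by the unadjusted rule, where 4.68% of all genes tested were called in either direction. Their median log2 fold change was 4.35 (3.40 without ORP4L KI replicate 1), and 0 of the 14 passed the adjusted threshold. Of 9 NK cell genes, 6 were called lower, among them Gzma, a granzyme, at -2.26 and Klrb1c, which encodes NK1.1, at -1.50. The median of the 9 was -1.50, and 0 of them passed the adjusted threshold. Of 9 dendritic cell genes, 7 were called lower, with a median of -1.44, and Cd209a, a lectin of dendritic cells at -2.41, also passed the adjusted threshold (adjusted p = 0.0471 in the edgeR test). Among monocyte and macrophage genes, Csf1r (-1.17) was called lower and Ly6c2 (1.27) higher. None of 10 B-cell genes, 9 erythroid genes and 7 platelet genes was called, with medians of -0.29, -1.50 and 0.23. The erythroid share of counts was 1.08% to 1.85% in WT and 0.117% to 0.852% in ORP4L KI. What these other cells contribute to the levels of the 10 genes was not tested.

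**Figure D5:**
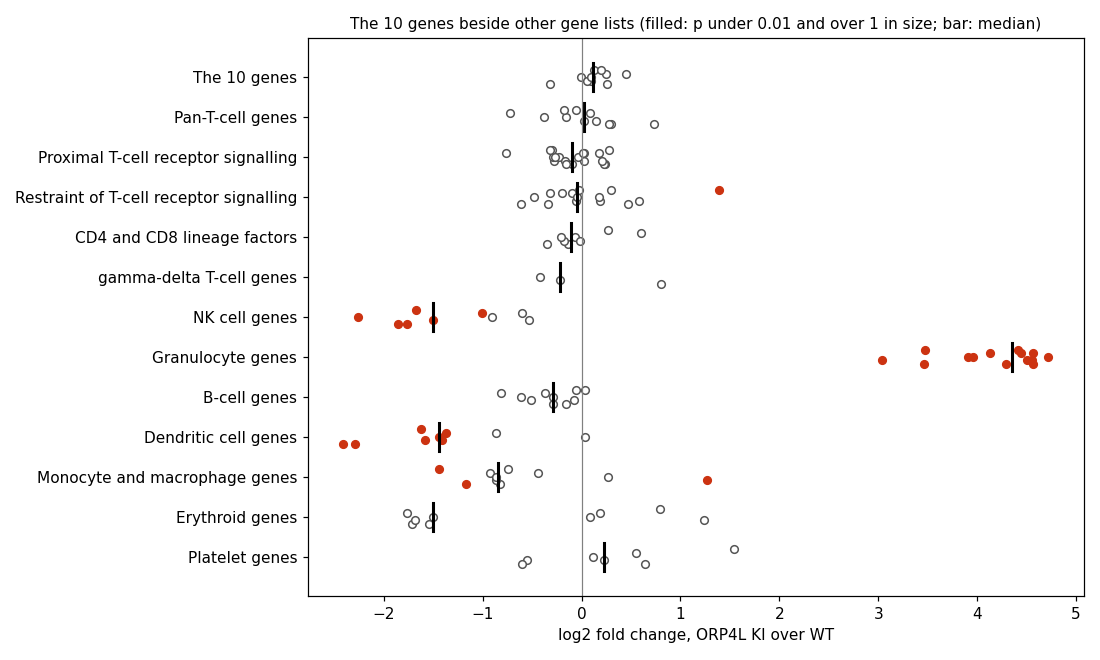
Log2 fold change, ORP4L KI over WT, of the 10 genes (top row) and of 12 gene lists, with 1 circle per gene, filled where the unadjusted p was under 0.01 and the log2 fold change above 1 in size, and a bar at the median. The T-cell lists centre near 0, while all 14 granulocyte genes lie at 3.04 or above and most NK and dendritic cell genes lie below -1.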

How the data were processed

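T-cells of 4 ORP4L KI mice and 3 WT littermates were sequenced (mRNA libraries, Illumina NovaSeq). The authors trimmed adapters, discarded reads under 17 bases, mapped reads to a mouse mRNA reference with FANSe3 and merged the splice variants of each gene. The labels name mm10. They deposited, without normalization, the read count of each gene, beside its RPKM computed on the longest transcript. How reads shared between genes were treated is not given in the sources used here, nor is strand. Counts listed came to 99.81% to 99.91% of the totals the RPKM imply.

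Groups and replicate numbers follow the labels, and no libraries agreed within sampling noise. Counts were scaled by TMM and tested with edgeR 4.0.16 (quasi-likelihood test, R 4.3.3, no covariates) over the 13462 genes that passed filterByExpr (about 10 counts in enough libraries, 15 in all), with Benjamini-Hochberg adjustment over all of them. CPM are TMM-scaled. Count ratios were compared by the mean of log2 ratios with the two-sided exact permutation test. RPKM served only to order genes by level. Two-sided 95% intervals used edgeR's degrees of freedom. Alternatives were DESeq2 1.42.0, other scalings and filters, edgeR's likelihood ratio test, thinned counts, RPKM ratios, the replicate number as a block and each library left out. A term for Y-linked reads was chosen only on seeing the data. The test was checked on simulated data. The 10 genes, ratios and 12 lists were chosen with earlier results of these data known. In other lists the text names genes that passed a call rule, at most 6, or the 2 largest changes. Of the genes this rule covers, 1 is not reported here. Zbtb7b, Runx3, Vav1 and S100a9 were named after their values were seen. For likeness, r was taken over genes with a mean log2 CPM of at least 4 (pseudocount 1). Of 14 pan-T-cell and 7 gamma-delta genes fixed, 11 and 3 were analysed here.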

Additional observations from a re-analysis of the deposited data

Results flagged for a closer look

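ORP4L KI replicate 1 lay far from the other ORP4L KI libraries in 2 of the 21 groups of levels and ratios examined, where chance gives about 1 in 20. The Cd247 to Cd3e count ratio was 0.689 in this library, against 1.22 to 1.30 in the other 3 ORP4L KI libraries. The Cd8a to Cd8b1 count ratio was 1.55, against 1.02 to 1.11 in the other 3. The gap to the nearest library was 0.862 of the range of the 4 libraries for the first ratio and 0.834 for the second, both past Dixon's 95% critical value. In the same library granulocyte genes took 12.2% of all counts, and the part of that RNA in these ratios was not tested.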

How the results depend on the processing

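The number of genes past an adjusted p of 0.05, 3 in the analysis reported, was 784 in DESeq2's Wald test and 706 in the likelihood ratio test of edgeR, 44 when libraries were scaled by the upper quartile, 113 by total counts, and 176 if no genes were filtered out. It fell to 0 when 10 counts were required of all libraries (1549 genes at an unadjusted p under 0.05) and 0 with a term for Y-linked reads, chosen after seeing the data (1544). It ranged from 0 to 342 with each library left out, the highest without ORP4L KI replicate 2. The number called by the unadjusted p and the fold change was 630 in the analysis reported. With each library left out it ranged from 328 without WT replicate 2 to 805 without ORP4L KI replicate 2. It was 855 in DESeq2's Wald test and 870 in the likelihood ratio test of edgeR. None of the 10 genes passed an adjusted p of 0.05 under any of these settings, with 0.186 the lowest adjusted p in edgeR or DESeq2.

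Of 170 values recomputed for the 10 genes, 146 kept their direction and 24 changed sign. Sign changes came with total counts alone for Cd3g (-0.0028), Cd247 (-0.051) and Zap70 (-0.012), with upper-quartile scaling for Cd247 (-0.0025), and with DESeq2's size factors and Wald test for Lck (0.0040 in both). With each library left out the log2 fold change ranged from -0.040 to 0.34 for Cd3e, -0.15 to 0.34 for Cd3g, -0.22 to 0.31 for Cd247, -0.084 to 0.35 for Cd8a, -0.22 to 0.21 for Lck and -0.10 to 0.34 for Zap70. The direction held for Cd3d (0.12 to 0.42), Cd4 (-0.68 to -0.04), Cd8b1 (0.25 to 0.73) and Lat (0.12 to 0.45). Of 121 recomputed values of the 11 ratios, 11 changed sign, 10 with a library left out and 1 with the replicate block. The block value of a ratio equals that without ORP4L KI replicate 4, so this 1 change repeats 1 of the 10. RPKM ratios differ from count ratios only by a length factor, so their log2 differences could not change. The sign changes were in the ratios of Cd3d, Cd3g, Cd8a, Cd8b1, Zap70 and Lat to Cd3e. The log2 differences of these 6 ratios with each library left out ranged from -0.02 to 0.26, -0.27 to 0.01, -0.24 to 0.02, -0.02 to 0.43, -0.28 to 0.02 and -0.09 to 0.17. The other 5 ratios kept their direction. For those of Cd4 to Cd8a and to Cd3e, whose groups did not overlap, leaving out a library could not have changed it. The exact test was run for 33 of the 121 values, and the lowest p was 0.0571. The tests of the RPKM ratios repeat those of the count ratios. The cause of these changes was not tested.

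Libraries with the same replicate number did not deviate together (correlations of -0.53 to 0.15), so the numbers were not taken as pairs. With the replicate block, which leaves out ORP4L KI replicate 4, 48 genes passed an adjusted p of 0.05, against 0 in the same 6 libraries without it (1421 at an unadjusted p under 0.05). The block turned Cd3g (-0.083), Cd247 (-0.19, and -0.020 in the same 6 libraries without it), Cd8a (-0.034) and Zap70 (-0.12). Counting error was small, so the number of mice limited precision.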
